A study of Mus musculus with 4 samples.

Results

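Ebf1 and 7 further genes of early B cell development, Blnk, Cd79a, Cd79b, Vpreb1, Vpreb3, Igll1 and Pou2af1, were followed in bone marrow progenitors of C57BL/6 mice. The 8 genes, of 27998 in the count tables, were chosen by name, and all 8 had counts in each of the 4 libraries. The progenitors were lymphoid-primed multipotent progenitors (LMPPs), cells sorted by FACS that can still form both lymphoid and myeloid cells, and their transcripts were counted cell by cell on the 10x Genomics platform. RBPJ is the DNA-binding factor through which Notch receptors act. There was 1 library per group: RBPJ uninduced (mice that lacked RBPJ, 2769 cells), RBPJ 3 days induced (1292 cells), RBPJ 6 days induced (2129 cells) and Control (mice that always expressed RBPJ, 2693 cells). Doxycycline switched RBPJ on, first by intraperitoneal injection (2 mg/ml) and afterwards in the drinking water (1 mg/ml); the labels do not say whether the uninduced and Control mice received it, nor how many mice or which age went into a library. With 1 library per group no difference had a replicate check and no test was made. All 95% intervals below cover counting error only, and those of levels and folds treat each UMI as independent. They are therefore too narrow where few cells hold most UMIs of a gene.

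EBF1 is a transcription factor that starts the B cell programme together with E2A and PAX5, and it switches on the genes of the pre-B cell receptor. That receptor is made of an immunoglobulin heavy chain, a surrogate light chain from Vpreb1 and Igll1, and the signalling chains from Cd79a and Cd79b, and BLNK carries its signal onward. In the marrow these genes mark the step at which lymphoid progenitors commit to the B lineage.

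The sequences just upstream of the transcription start are shown for Cd79a, Vpreb3, Igll1 and Pou2af1, the members whose counts sat in very few cells, because these genes were found together in the same few cells. RefSeq promoter entries (GRCm38.p6) matched 7 of the 8 members, all but Cd79b. Each stretch ends at the last base before the RefSeq start, except for Cd79a, where bases in annotated exons were left out and 134 of 250 bases remain. The windows of Blnk, Vpreb1 and the first Ebf1 start fell within or too close to annotated exons and are not shown. Capitals mark matches, on either strand, to the EBF core CCCNNGGG, the E-boxes CAGCTG and CAGGTG bound by E proteins, and the octamer ATGCAAAT, to which the factors that POU2AF1 assists bind. The longer EBF palindrome, the core with T before it and A after it, was searched too on both strands and matched none of the stretches.
Cd79a, chr7:24897247-24897380, plus strand: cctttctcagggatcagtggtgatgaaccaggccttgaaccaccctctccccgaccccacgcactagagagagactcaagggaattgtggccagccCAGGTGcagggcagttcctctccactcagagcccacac
Vpreb3, chr10:75948050-75948299, plus strand: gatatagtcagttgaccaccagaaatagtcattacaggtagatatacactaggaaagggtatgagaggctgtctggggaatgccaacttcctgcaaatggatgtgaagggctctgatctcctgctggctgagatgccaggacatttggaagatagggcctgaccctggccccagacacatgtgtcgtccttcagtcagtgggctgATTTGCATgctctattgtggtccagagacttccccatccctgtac
Igll1, chr16:16863986-16864235, minus strand: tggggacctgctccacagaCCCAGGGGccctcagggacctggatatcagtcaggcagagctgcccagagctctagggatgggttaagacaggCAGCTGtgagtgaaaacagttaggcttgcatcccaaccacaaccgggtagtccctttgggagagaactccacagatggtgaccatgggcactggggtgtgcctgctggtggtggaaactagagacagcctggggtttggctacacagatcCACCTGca
Pou2af1, chr9:51213440-51213689, plus strand: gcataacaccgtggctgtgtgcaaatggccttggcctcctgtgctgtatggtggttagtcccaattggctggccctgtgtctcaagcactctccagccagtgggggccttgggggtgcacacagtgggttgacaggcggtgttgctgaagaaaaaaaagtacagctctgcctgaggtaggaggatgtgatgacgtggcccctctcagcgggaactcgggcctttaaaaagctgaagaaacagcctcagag

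Igll1 held the EBF core 231 to 224 bases before its start, with CAGCTG at 158 to 153 and CAGGTG at 8 to 3. Vpreb3 held the octamer at 45 to 38 bases before the RefSeq start, a window that lies between exons of a longer GENCODE transcript of the gene. Cd79a held CAGGTG at 154 to 149, and Pou2af1 held none of the 5 motifs searched. Of 32851 promoter windows of 250 bases, 11.8% held the EBF core, 0.779% the palindrome, 13.0% CAGCTG, 17.2% CAGGTG and 1.60% the octamer, and 9.75% of windows shortened to 134 bases held CAGGTG. These matches describe exact letters only, so a binding site that departs from them is not marked, and a stretch without a match may hold one. In GENCODE vM21, on the same build as the counts (mm10), the genes lie at chromosome 11, 44617317 to 45008091 (Ebf1), chromosome 9, 51213708 to 51240080 (Pou2af1), chromosome 7, 24897381 to 24902197 (Cd79a), chromosome 11, 106311341 to 106314762 (Cd79b), chromosome 16, 16868403 to 16870843 (Vpreb1) and 16860671 to 16863985 (Igll1), chromosome 10, 75943057 to 75949657 (Vpreb3), and chromosome 19, 40928927 to 40994535 (Blnk). Ebf1 overlaps the antisense gene Gm12158, and whether the counting used strand was not given, so it is not known whether their reads were kept apart.

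Summed UMIs (unique molecules) of the cells came to 10647894 to 23504158 per library, with medians of 6774 to 7920 per cell. Rbpj stood at 11.2 CPM (UMIs scaled to the library total) in the uninduced library, 508 at 3 days, 485 at 6 days and 17.8 in Control, and Hes1, a Notch target, at 18.0, 43.5, 129 and 89.7 CPM in the same order. The part of Rbpj that was deleted was not given in the sources used here, so the counts in the uninduced library do not check its label. Summed markers of LMPPs (Flt3, Cd34, Kit and others) were at 815 to 921 CPM. Other lineages varied more between libraries: summed neutrophil markers were at 3444 CPM in uninduced, 4067 at 3 days, 2860 at 6 days and 954 in Control cells, and erythroid and megakaryocyte markers at 569, 30.9, 630 and 116 CPM. Their part in the results below was not tested. Libraries shared 2 to 17 cell barcodes per pair.

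The 8 genes fell into 2 kinds. The UMIs of Cd79b and Blnk were spread thinly over many cells, and the part of free RNA in this spread was not tested. Those of Cd79a, Vpreb3, Igll1 and Pou2af1 were held by a handful of cells in every library, and Ebf1 and Vpreb1 lay between. The 10 cells with most UMIs of a gene held 4.10% to 9.16% of the Cd79b UMIs across libraries and 10.8% to 29.4% of those of Blnk. They held 33.7% to 73.7% of the Ebf1 UMIs, 37.2% to 61.6% of those of Vpreb1 and 74.1% to 100% of those of Cd79a. For Vpreb3 the share was 92.2% to 100%, for Pou2af1 95.7% to 100%, and for Igll1 100% in each library. For the scarcest genes this share is bound to be high, since Igll1 was seen in only 2 to 7 cells per library and Pou2af1 in 2 to 11, with 5 to 23 UMIs.

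**Figure D1:**
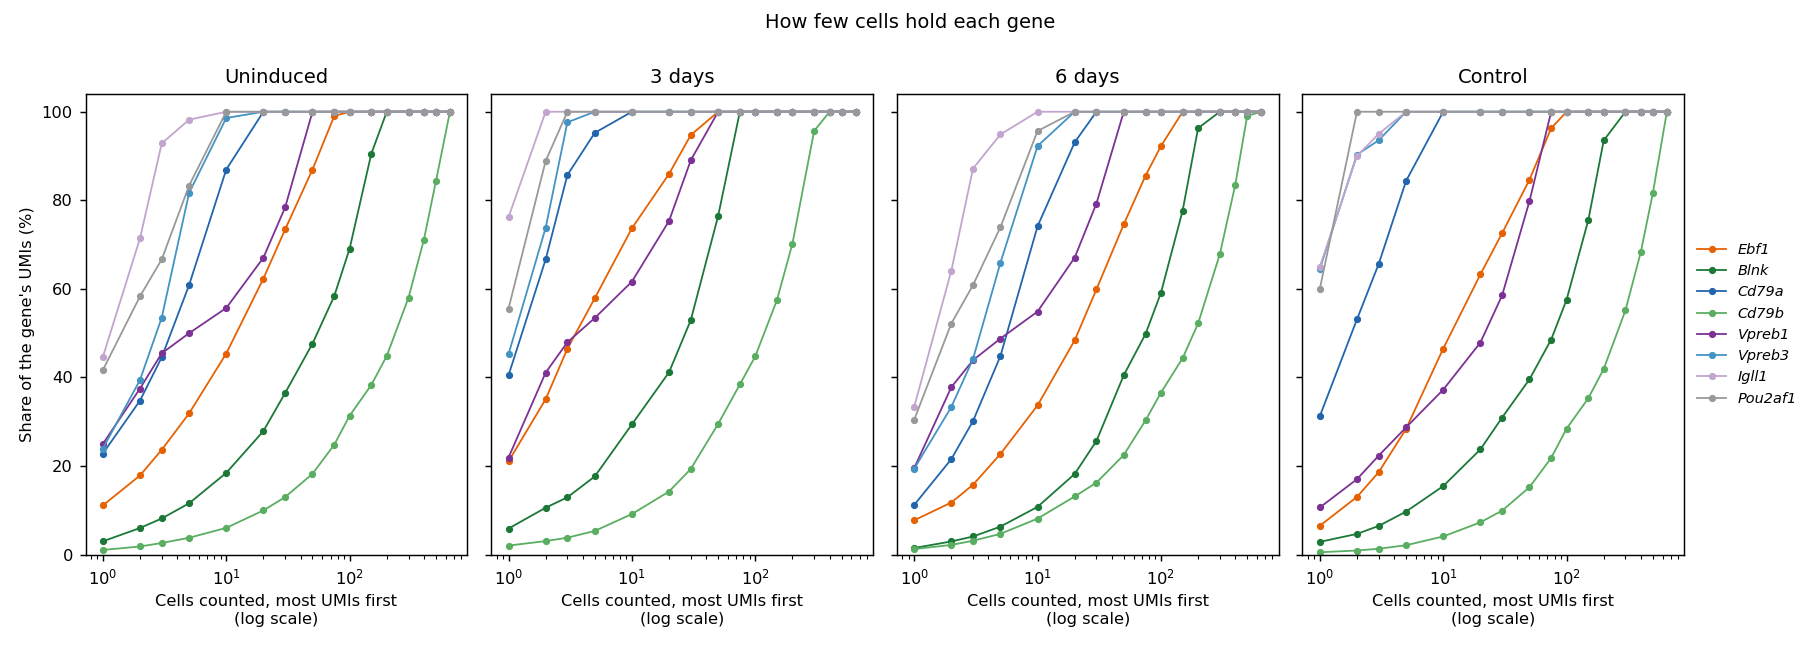
Share of each gene's UMIs (percent) held by the cells with most of them, against the number of cells counted (log axis), for the uninduced, 3-day, 6-day and Control libraries. Igll1, Pou2af1, Vpreb3 and Cd79a reach 74.1% or more within 10 cells in every library, while Cd79b stays at or below 9.16%.

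To see how much rested on the few cells, cells with 3 or more UMIs summed over Cd79a and Vpreb3 were set apart. There were 12 such cells of 2769 in uninduced, 4 of 1292 at 3 days, 15 of 2129 at 6 days and 5 of 2693 in Control, 36 of 8883 in all, and no barcode among them was shared between libraries. Exactly 3 UMIs were held by 1 cell in uninduced, 1 at 3 days, 0 at 6 days and 0 in Control, and exactly 2 by 1, 0, 1 and 0 cells. Cells with a single UMI numbered 10, 4, 16 and 6 in the same order. Since Cd79a and Vpreb3 chose these cells, what follows on those 2 genes is a description.

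Ebf1, the factor that opens the B cell programme, had 207 UMIs in 77 uninduced cells, 114 in 36 cells at 3 days, 374 in 129 cells at 6 days and 215 in 83 Control cells. Its level was 9.88 CPM (8.58 to 11.3) in uninduced, 10.7 (8.83 to 12.9) at 3 days, 21.4 (19.3 to 23.7) at 6 days and 9.15 (7.97 to 10.5) in Control. The 6-day library stood alone above the other 3, whose intervals overlapped. Without the cells set apart, Ebf1 was at 5.75 CPM in uninduced, 5.37 at 3 days, 13.6 at 6 days and 7.07 in Control, so the 6-day library remained the highest and the intervals of the other 3 overlapped. Those few cells held 42.0% of the Ebf1 UMIs in uninduced, 50% at 3 days, 36.9% at 6 days and 22.8% in Control. Outside them, 2.36% of uninduced, 2.48% of 3-day, 5.44% of 6-day and 2.90% of Control cells had an Ebf1 UMI.

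The share of cells with a UMI has a floor set by RNA free in the droplets. Among 73 cells of the neutrophil lineage (10 or more UMIs over Camp, Ngp, Ltf and Elane), which should lack these genes, 2 had an Ebf1 UMI, or 2.74% (0.334% to 9.55%), and 1 of them had 3 or more. Their median depth was 5071 to 7422 UMIs per library, against 6768 to 7927 in the other cells. The overall shares of Ebf1 cells, 2.78%, 2.79%, 6.06% and 3.08%, lay within that wide interval, so these 73 cells could not tell them from background. Outside the cells set apart, cells without a UMI of Il7r or Ly6d had smaller shares, 0.772%, 1.28%, 2.34% and 1.34%. With every cell thinned to 4700 UMIs (676, 204, 374 and 351 shallower cells of uninduced, 3-day, 6-day and Control left out), 2.25%, 2.11%, 4.62% and 1.84% of cells had Ebf1. Without the cells set apart they were 1.92%, 1.93%, 4.18% and 1.71%, highest at 6 days at equal depth too.

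Pou2af1, the coactivator that works with OCT factors in B cells, had 12 UMIs in 7 uninduced cells, 9 in 3 cells at 3 days, 23 in 11 cells at 6 days and 5 in 2 Control cells. Its levels of 0.573, 0.845, 1.32 and 0.213 CPM stayed under the 2 CPM asked for a comparison. Outside the cells set apart 3, 0, 2 and 0 UMIs were left.

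Cd79a, a signalling chain of the B cell receptor, had 92 UMIs in 19 uninduced cells, 42 in 7 cells at 3 days, 116 in 28 cells at 6 days and 32 in 10 Control cells. That made 4.39 CPM (3.54 to 5.38) in uninduced, 3.94 (2.84 to 5.33) at 3 days, 6.65 (5.49 to 7.97) at 6 days and 1.36 (0.931 to 1.92) in Control. Control was lowest, with a counting interval below the other 3. These intervals are too narrow here, because few cells held the UMIs: at 3 days 1 cell held 40.5% of them. Outside the cells set apart 9, 3, 14 and 5 UMIs were left, at 0.213 to 0.806 CPM.

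Cd79b, the partner chain, behaved otherwise. It had 762 UMIs in 620 uninduced cells, 393 in 317 cells at 3 days, 640 in 506 cells at 6 days and 756 in 639 Control cells, which is 36.4, 36.9, 36.7 and 32.2 CPM. The cells set apart held 5.51%, 3.31%, 9.06% and 1.32% of it, and without them the levels were 34.5, 35.8, 33.5 and 31.8 CPM, within 1.5-fold of each other. A UMI was seen in 22.4% of uninduced, 24.5% of 3-day, 23.8% of 6-day and 23.7% of Control cells, against 3 of the 73 neutrophil-lineage cells, or 4.11% (0.856% to 11.5%). That is above the background share. At 4700 UMIs per cell the shares were 16.0%, 15.5%, 16.0% and 14.7%. Barcodes of 10 to 100 UMIs, which hold mostly free RNA, had 34.4, 22.2, 54.5 and 41.2 CPM of Cd79b. That range takes in the levels of the cells, and the part of free RNA in the Cd79b of cells was not tested.

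Vpreb1 and Igll1 encode the 2 parts of the surrogate light chain. Igll1 had 56 UMIs in 6 uninduced cells, 21 in 2 cells at 3 days, 39 in 7 cells at 6 days and 20 in 4 Control cells, or 2.67, 1.97, 2.23 and 0.851 CPM. Outside the cells set apart 2, 0, 3 and 2 of these UMIs remained, so Igll1 followed Cd79a and Vpreb3 although it did not choose the cells. Vpreb1 had 88 UMIs in 49 uninduced cells, 73 in 38 cells at 3 days, 82 in 47 cells at 6 days and 94 in 69 Control cells, or 4.20 (3.37 to 5.17), 6.86 (5.37 to 8.62), 4.70 (3.74 to 5.83) and 4.0 (3.23 to 4.89) CPM. Vpreb1 was highest at 3 days, with an interval that overlapped that of 6 days. It had 2 sources: the cells set apart held 47.7%, 41.1%, 45.1% and 14.9% of it, in 4, 2, 4 and 2 cells, and the rest came mostly as single UMIs, in 1.63%, 2.79%, 2.03% and 2.49% of the other cells. None of the 73 neutrophil-lineage cells had a Vpreb1 UMI, which allows a share of up to 4.11% (taken as 3 counts of 73; the Clopper-Pearson limit is 4.93%), so the scattered Vpreb1 could not be told from background. Reads of Vpreb1 can also be shared with its near copy Vpreb2: 30.8% of the 31-base words in the last 500 exonic bases of Vpreb1 also occur in Vpreb2, and Vpreb1 overlaps Top3b on the other strand. Its values are therefore uncertain.

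Vpreb3, whose product associates with newly made immunoglobulin chains, had 71 UMIs in 11 uninduced cells, 42 in 4 cells at 3 days, 129 in 18 cells at 6 days and 31 in 5 Control cells. Its level was 3.39 CPM (2.65 to 4.27) in uninduced, 3.94 (2.84 to 5.33) at 3 days, 7.39 (6.17 to 8.78) at 6 days and 1.32 (0.896 to 1.87) in Control. The order put 6 days first and Control last, with uninduced and 3 days overlapping. These intervals too are narrow, because few cells held the gene. Of the Vpreb3 UMIs, 3, 1, 4 and 1 lay outside the cells set apart.

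Blnk, the adaptor downstream of the receptor, had 233 UMIs in 172 uninduced cells, 85 in 70 cells at 3 days, 269 in 210 cells at 6 days and 278 in 218 Control cells. That gave 11.1 CPM (9.74 to 12.6) in uninduced, 7.98 (6.38 to 9.87) at 3 days, 15.4 (13.6 to 17.4) at 6 days and 11.8 (10.5 to 13.3) in Control. Blnk was lowest at 3 days, where the interval just met that of uninduced, and highest at 6 days, and it kept that order without the cells set apart, at 9.87, 7.63, 14.2 and 11.3 CPM. A UMI was seen in 6.21%, 5.42%, 9.86% and 8.10% of cells, against 1 of the 73 neutrophil-lineage cells, or 1.37% (0.0347% to 7.40%).

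**Figure D2:**
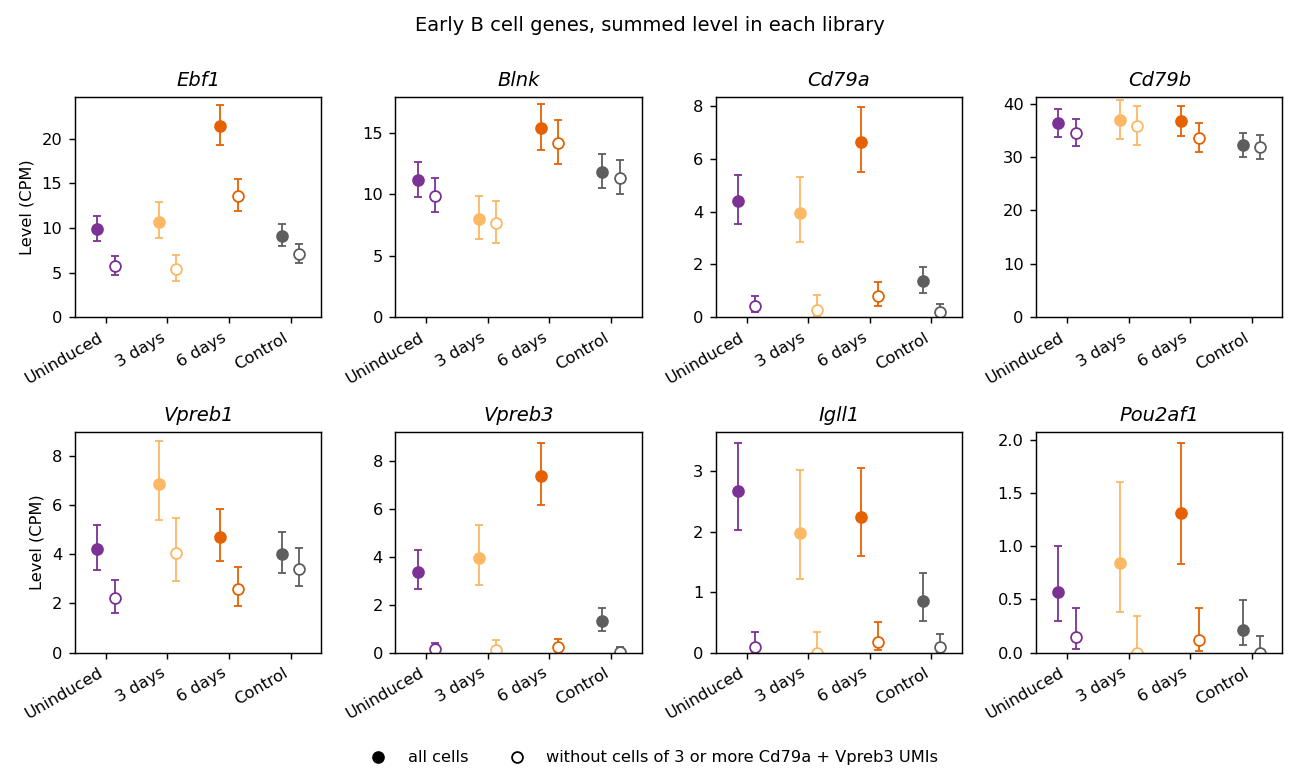
Level of each of the 8 genes in CPM in the uninduced, 3-day, 6-day and Control libraries, over all cells (filled points) and without cells of 3 or more Cd79a plus Vpreb3 UMIs (open points); bars are exact Poisson 95% intervals and cover counting error only. Cd79a, Vpreb3, Igll1 and Pou2af1 drop to 0.806 CPM or less without 4 to 15 cells per library, while Cd79b stays at 31.8 CPM or more. Cd79a and Vpreb3 chose the cells left out, so their drop follows from the rule.

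For each comparison a gene was called where its CPM + 1 differed by 1.5-fold or more and it reached 2 CPM in at least 1 of the 2 libraries. Pou2af1 passed that minimum in no comparison, and the other 7 members passed in each. Uninduced against Control asked what lacking RBPJ went with. Here 3 of 7 members were higher, while 1.05% of all 10542 genes were, and 0 of 7 were lower, with 1.28% of all genes. Cd79a was 3.23-fold (2.14 to 4.99), Igll1 3.14-fold (1.86 to 5.53) and Vpreb3 2.57-fold (1.66 to 4.05) higher. All 3 reached 2 CPM in the uninduced library only, so they could be tested only because they were high there, and their count is a description. Ebf1 was 1.08-fold (0.888 to 1.31). Without the cells set apart, 12 against 5, these 3 genes fell below 2 CPM and were no longer compared. For Cd79a and Vpreb3 that follows from the rule, which removed cells by their UMIs. Igll1 did not choose the cells. Of the 4 members still at 2 CPM, 0 were called higher (1.03% of all genes) or lower (1.25%). Ebf1 was at 0.813-fold (0.637 to 1.03).

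At 3 days of induction against uninduced, 1 of 7 members was higher (1.06% of 10505 genes) and 0 were lower (1.58%). The 1 was Vpreb1, at 1.63-fold (1.18 to 2.25), and 1.84-fold (1.18 to 2.85) without the cells set apart, where 1.04% of all genes were higher and 0 members but 1.59% of all genes were lower. With cells thinned to 4700 UMIs, which also left out 204 and 676 shallower cells and with them 2 of 4 and 5 of 12 of the cells set apart, its log2 ratio was -0.0245 and it was not called. In the thinned cells without those set apart Vpreb1 was at 3.92 CPM at 3 days and 2.86 CPM in uninduced, from 20 and 28 UMIs. That was short of the call as well. Ebf1 was 1.08-fold (0.855 to 1.37), and Blnk 0.718-fold (0.553 to 0.924), short of the threshold.

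At 6 days against uninduced, 2 of 7 members were higher (1.11% of 10543 genes) and 0 were lower (0.531%). Ebf1 was 2.17-fold (1.83 to 2.58) and Vpreb3 2.18-fold (1.62 to 2.96) higher. Cd79a, at 1.51-fold (1.14 to 2.01) on CPM and 0.50 on the log2 scale of CPM + 1, fell short. Without the cells set apart 4 members still reached 2 CPM. Ebf1 was the only one called, at 2.36-fold (1.89 to 2.97), with 1.1% of all genes higher, and 0 were lower (0.551%). The loss of Vpreb3 follows from the rule. Over all cells the median log2 ratio of the 7 members was 0.44, and that of all genes tested -0.02. Without the cells set apart the median of the 4 members left was 0.32. In the other comparisons the median over all cells was 0.17 (uninduced against Control), 0.02 (3 days against uninduced) and 0.81 (6 days against Control).

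At 6 days against Control, 4 of 7 members were higher (1.01% of 10573 genes) and 0 were lower (0.435%). Vpreb3 was 5.60-fold (3.76 to 8.58), Cd79a 4.88-fold (3.28 to 7.46), Igll1 2.63-fold (1.49 to 4.75) and Ebf1 2.34-fold (1.98 to 2.78) higher. Of these 4 only Ebf1 reached 2 CPM in both libraries; Vpreb3, Cd79a and Igll1 did so at 6 days only, so the count is again a description. Without the cells set apart 4 members still reached 2 CPM. Of these only Ebf1 was called, at 1.92-fold (1.57 to 2.36), against 0.955% of all genes higher, and 0 members were lower (0.463%). The loss of Vpreb3 and Cd79a follows from the rule. Neutrophil markers, 3444 CPM in uninduced and 2860 CPM at 6 days against 954 CPM in Control, moved with the calls against Control, and so did erythroid and megakaryocyte markers, at 569 and 630 CPM against 116 CPM. Their part in the calls was not tested. The cells set apart held 1 to 11 neutrophil marker UMIs per library. The 4 comparisons share libraries, so their values are not independent of each other.

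Other B lineage genes were read from lists by role. Of 9 early B regulators that reached 2 CPM, 1 was higher and 0 lower in uninduced against Control, 0 and 1 at 3 days against uninduced, 1 and 0 at 6 days against uninduced, and 1 and 0 at 6 days against Control. Over all genes the shares higher and lower were 1.05% and 1.28%, 1.06% and 1.58%, 1.11% and 0.531%, and 1.01% and 0.435% in the same order, and they stand beside the receptor partners and recombination genes too. Ly6d, a surface protein found on lymphoid progenitors biased to the B lineage, was at 26.1 CPM in uninduced, 12.2 at 3 days, 28.5 at 6 days and 12.4 in Control, which made it the regulator called in all but the third comparison. Il7r, the receptor chain for interleukin 7, was at 18.5, 15.6, 32.4 and 27.4 CPM and was called there, at 1.75-fold (1.54 to 2.00). Among 5 receptor partners at 2 CPM, Bank1, a B cell scaffold protein, was 1.74-fold (1.34 to 2.27) in uninduced against Control and 0.436-fold (0.289 to 0.639) at 3 days against uninduced, and no other partner was called in any comparison. Of the 3 recombination genes Rag1 was 2.19-fold (1.35 to 3.60) and Rag2 1.59-fold (1.30 to 1.93) higher at 6 days against uninduced. Dntt, the enzyme that adds bases at immunoglobulin joints, was at 667, 830, 842 and 770 CPM and was called in none. Pax5, a factor that holds cells in the B lineage, had 3, 1, 14 and 6 UMIs, below the minimum, and Ighm was not analysed here.

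The 36 cells set apart held most UMIs of 4 members. For Cd79a and Vpreb3, which chose the cells, this follows from the rule. They had 84.4% to 92.9% of the Cd79a UMIs of a library, 95.8% to 97.6% of the Vpreb3 UMIs, 90% to 100% of the Igll1 UMIs and 75% to 100% of the Pou2af1 UMIs. Ebf1 was found in 12 of 12 such cells in uninduced, 4 of 4 at 3 days, 14 of 15 at 6 days and 5 of 5 in Control, at 1076 (862 to 1327), 1874 (1420 to 2429), 1479 (1243 to 1747) and 1277 (945 to 1688) CPM. Those of uninduced and 3 days did not overlap, but they count UMIs of only 12 and 4 cells, which are not independent. LMPP markers summed to less in them than in all cells, at 383 to 428 CPM in 3 libraries and, at 6 days, 257 CPM. Cells with a UMI of Igll1 or Vpreb1, a split made after the values were seen, were 12 of the 36 and all 12 had both genes. In those 12 cells Ms4a1 (CD20, of later B cells) was at 0, Cd74, the MHC class II chaperone, which mature B cells express strongly, had 1 UMI and Kit had 0. The other 24 cells had 19 Ms4a1 UMIs in 10 cells and 411 Cd74 UMIs in 16 cells, besides 145 of Cd79a and 125 of Vpreb3. Progenitor genes were also higher in the sum of these 24 cells than in the 12. Dntt was at 1428 against 386 CPM, Flt3 at 146 against 18.8 CPM and Cd34 at 176 against 9.40 CPM. The sums do not show that the same cells held both sets of genes. Of the 195 Dntt UMIs 88 lay in 1 cell at 3 days, which had 8 of the 20 Flt3 UMIs, 1 of Cd74 and 0 of Ms4a1. The cell with most Cd74, 87 UMIs at 6 days, had 0 of Dntt, Flt3 and Cd34. Several cells held both. Examples were an uninduced cell with 15 Cd74, 3 Dntt and 5 Cd34 UMIs and another with 61, 1 and 1. A 6-day cell had 7 Cd74, 16 Dntt and 2 Cd34 UMIs. The split by Igll1 and Vpreb1 gave cells of both sets in each library: 4 and 8 cells in uninduced, 2 and 2 at 3 days, 4 and 11 at 6 days and 2 and 3 in Control. At 3 days the 2 cells without these genes had 0 Ms4a1 UMIs and 7 of Cd74. No doublet caller was run, and whether some of these barcodes held more than 1 cell was not tested.

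**Figure D3:**
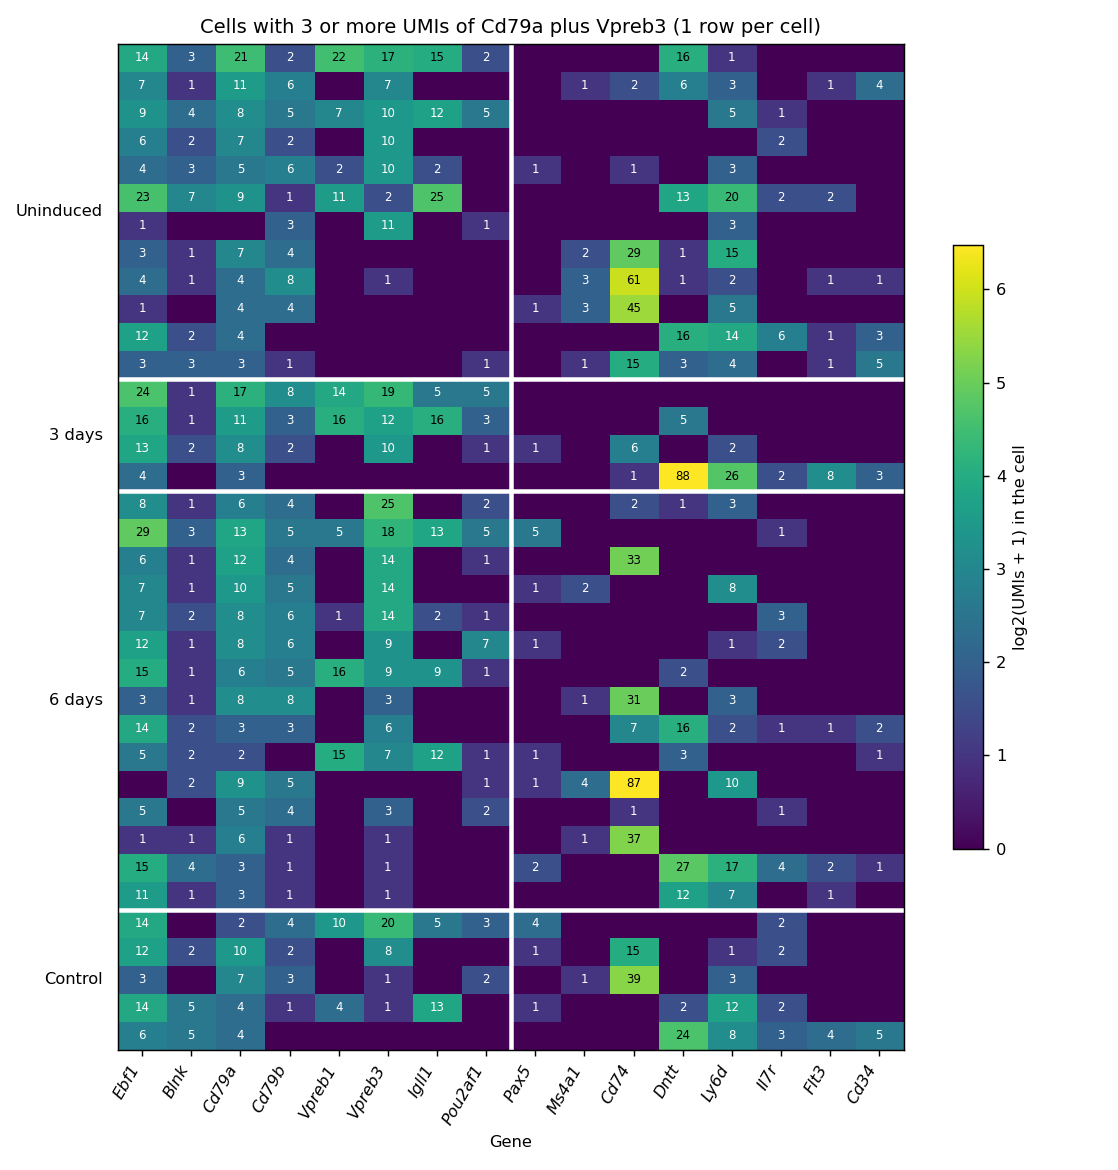
UMIs of the 8 genes (left of the line) and of 8 further B lineage and progenitor genes in each of the 36 cells with 3 or more Cd79a plus Vpreb3 UMIs, grouped by library from uninduced through 3 days and 6 days to Control; colour is log2(UMIs + 1) and printed digits are UMIs. Igll1 and Vpreb1 have UMIs in the same 12 cells, and Ms4a1 is at 0 in all of those.

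Rbpj was measured in these cells as well. All 4 cells at 3 days and 12 of 15 at 6 days had an Rbpj UMI, with 2927 and 5059 CPM, against 1 UMI in the 12 uninduced cells and 0 in the 5 Control cells. Among the remaining 6-day cells Ebf1 was at 13.7 CPM (11.5 to 16.2) where an Rbpj UMI was seen and at 13.5 CPM (11.0 to 16.3) where none was. At 3 days it was at 5.79 CPM (3.99 to 8.13) with and 4.88 CPM (3.13 to 7.26) without. The intervals of the cells with and without Rbpj overlapped, at median depths of 9845 and 6052 UMIs per cell at 6 days. Free Rbpj RNA stood at 291 CPM at 3 days and 285 CPM at 6 days in barcodes of 10 to 100 UMIs, so a Rbpj UMI does not show that a cell expressed the gene, and these values cannot tell whether Ebf1 differs with its expression.

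Outside the cells set apart, Ebf1 followed Il7r and Ly6d, the markers of common lymphoid progenitors. In cells with a UMI of both, Ebf1 was at 113 CPM (83.0 to 150) in 37 uninduced cells, 133 CPM (72.9 to 224) in 9 cells at 3 days, 156 CPM (126 to 193) in 49 cells at 6 days and 102 CPM (77.6 to 132) in 47 Control cells. In cells with neither it was at 1.62, 1.93, 4.74 and 2.72 CPM. Of the double-positive cells 59.5%, 55.6%, 59.2% and 27.7% had an Ebf1 UMI, at median depths of 10637 to 11920 UMIs, far above the neutrophil-lineage share of 2.74%. Of the cells with neither, 0.772%, 1.28%, 2.34% and 1.34% had one, which is within that background. Cd79b showed no such pattern, with 21.2 to 38.4 CPM in double-positive cells and 32.4 to 36.7 CPM in cells with neither.

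**Figure D4:**
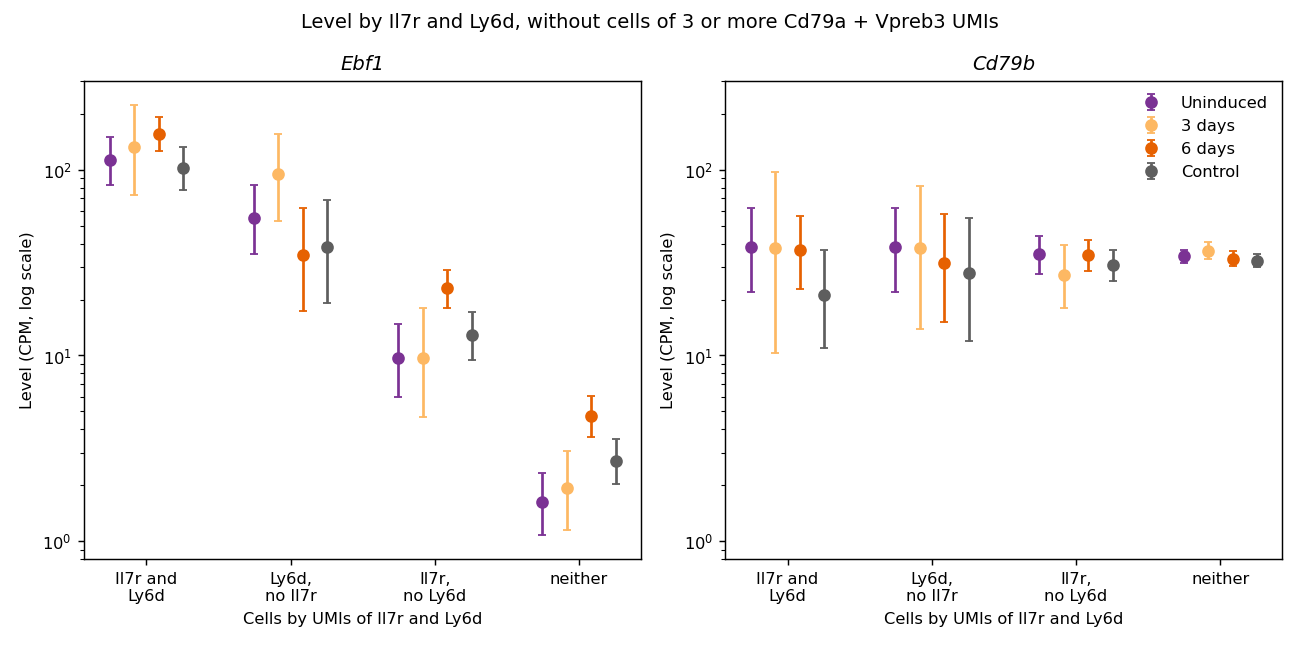
Level of Ebf1 and of Cd79b in CPM (log axis) in cells with UMIs of Il7r and Ly6d, of 1 of them or of neither, in the uninduced, 3-day, 6-day and Control libraries, without cells of 3 or more Cd79a plus Vpreb3 UMIs; bars are exact Poisson 95% intervals. Ebf1 is at 102 to 156 CPM in double-positive cells and at 1.62 to 4.74 CPM in cells with neither, while Cd79b stays between 21.2 and 38.4 CPM.

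These sets differed in size between libraries. Cells with both markers, Il7r alone, Ly6d alone and neither numbered 49, 281, 31 and 1753 at 6 days. In uninduced they numbered 37, 216, 42 and 2462. The part of set size in the 2.36-fold Ebf1 difference outside the cells set apart was not tested. Within several sets Ebf1 was also higher at 6 days. Against uninduced it was 2.92-fold (1.85 to 4.70) in cells with neither marker, 2.37-fold (1.44 to 4.05) in cells with Il7r and no Ly6d, and 1.39-fold (0.963 to 2.02) in double-positive cells. In cells with Ly6d and no Il7r it was 0.628-fold (0.276 to 1.34), from 11 UMIs at 6 days and 23 in uninduced. Blnk was 1.37-fold (1.05 to 1.78) at 6 days against uninduced in cells with neither marker and 0.762-fold (0.418 to 1.39) in double-positive cells. Barcodes of 10 to 100 UMIs had 5 Ebf1 UMIs in uninduced, 3 at 3 days, 29 at 6 days and 17 in Control, or 10.8 (3.49 to 25.1), 9.50 (1.96 to 27.8), 25.9 (17.4 to 37.2) and 9.88 (5.75 to 15.8) CPM. Free Ebf1 RNA was highest at 6 days as well, with an interval that overlapped those of uninduced and 3 days and not that of Control, and its part in the difference among cells with neither marker was not tested. The Ebf1 interval of cells with Ly6d and no Il7r lay below those of cells with Il7r alone and with neither, the others overlapped, and whether the folds differ was not tested.

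The genes that Ebf1 cells also held were compared with those of cells without an Ebf1 UMI. Outside the cells set apart and at 4700 UMIs per cell, Blnk was found in 12.5% of 40 Ebf1 cells and 4.25% of 2046 others in uninduced, in 19.0% of 21 and 1.97% of 1065 at 3 days, in 17.8% of 73 and 5.14% of 1673 at 6 days, and in 20% of 40 and 4.22% of 2299 in Control. Ly6d was found in 42.5% against 1.91%, 33.3% against 1.22%, 26.0% against 2.93% and 22.5% against 1.35% of the same cells. Cd79b was found in 15% against 15.7%, 0 against 15.8%, 16.4% against 15.7% and 7.5% against 14.8%. Flt3, a defining receptor of LMPPs, was found in 55% of Ebf1 cells against 56.3% of others in uninduced, 71.4% against 57.6% at 3 days, 65.8% against 58.8% at 6 days and 62.5% against 61.2% in Control. In unthinned cells Blnk was found in 23.1% of Ebf1 cells and 5.46% of others in uninduced, 18.8% and 4.86% at 3 days, 30.4% and 8.05% at 6 days, and 32.1% and 7.28% in Control, and Cd79b in 29.2% and 21.9%, 28.1% and 24.3%, 34.8% and 22.6%, and 21.8% and 23.7%. Ebf1 cells had higher shares of Ly6d and Blnk in each of the 4 libraries at either depth, whereas for Cd79b the direction changed with depth and library.

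Over all 8883 cells the genes most like Ebf1 by Pearson correlation of log values per cell were Mzb1 (0.50), Ly6d (0.47), Cecr2 (0.38), Cpm, carboxypeptidase M (0.30), and Blk (0.28). Among members, Cd79a stood at 0.64, Vpreb3 at 0.58, Pou2af1 at 0.46, Blnk at 0.30, Vpreb1 at 0.28 and Cd79b at 0.17. Without the 36 cells the list was Ly6d (0.42), Mzb1 (0.27), Tmem108 (0.25), Il7r (0.25) and Blk (0.25), Blnk stood at 0.14 and Cd79b at 0.01. Cells of 1 library share their depth and free RNA, and the counts are sparse, so these values are descriptive.

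The count of B lineage cells also depended on which barcodes were kept. The authors' cells had at least 1978 to 2321 UMIs, and 159 uninduced, 88 3-day, 127 6-day and 102 Control barcodes outside them had 500 or more. Of those, 28, 14, 20 and 3 had 3 or more UMIs of Cd79a plus Vpreb3. Counting both, 40 uninduced, 18 3-day, 35 6-day and 8 Control barcodes met that mark, and 64.4% of these 101 were not among the authors' cells. Over all barcodes of 500 or more UMIs, Vpreb3 was at 10.1 CPM in uninduced, 7.32 at 3 days, 11.1 at 6 days and 2.06 in Control, and Cd79a at 12.0, 11.2, 11.9 and 1.89 CPM. At that setting the 6-day and uninduced libraries had near equal Cd79a and Vpreb3, and Control remained lowest. Ebf1 was at 17.6, 15.5, 27.2 and 9.63 CPM, and 6 days remained highest.

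**Figure D5:**
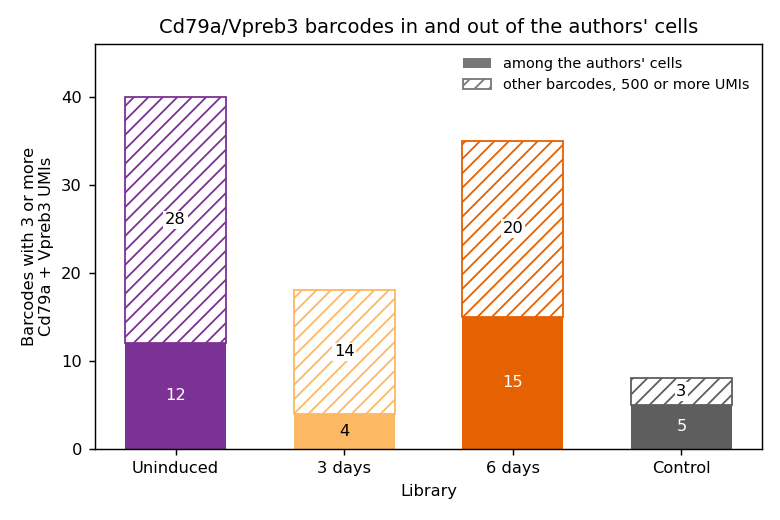
Number of barcodes with 3 or more UMIs of Cd79a plus Vpreb3 in the uninduced, 3-day, 6-day and Control libraries, among the authors' cells (filled) and among other barcodes of 500 or more UMIs (hatched). The hatched parts, 28, 14, 20 and 3 barcodes, exceed the filled ones, 12, 4 and 15, in the uninduced, 3-day and 6-day libraries, and not in Control, with 5.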

How the data were processed

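Single-cell RNA-seq counts of 4 libraries, 1 per group, were analysed. The deposited matrices hold whole UMI counts per gene and barcode with no cell filter, 27998 genes and 737280 barcodes per library. The authors' deposited tables of log2 values per cell were used only for the list of their cells. Per the submitters' processing notes, Seurat and the build mm10 are named; the aligner is not given in the sources used here. Genes and cell lists were chosen with earlier results of these data known.

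Each gene's UMIs in a library's cells were added up and scaled to the total (CPM). A gene was called at a 1.5-fold difference of CPM + 1 where it reached 2 CPM in either library. With 1 library per group no p-value was computed. Intervals at 95% were Clopper-Pearson for shares, conditional exact for folds and exact Poisson for levels, and cover counting error only. Thinning drew 4700 (or 3000) UMIs per cell without replacement, once, with a fixed seed. No doublet caller was run. Likeness used genes with UMIs in 20 or more cells. Genes named were the members, those of the listed B lineage genes past the call (at most 4 per list and direction, otherwise the 2 largest), B lineage genes chosen by name (1 of which is not reported here), Rbpj, Hes1 and the 5 genes most like Ebf1. Alternatives tried were other cell sets, scalings (edgeR 4.0.16 TMM factors and DESeq2 1.42.0 size factors, in R 4.3.3), pseudocounts, minima and thinning. The call was tested on simulated counts with known folds. Python 3.11.15, NumPy 2.4.6, SciPy 1.17.1, pandas 2.3.3 and Matplotlib 3.10.9 were used. Promoter sequences came from RefSeq (GRCm38.p6) and exons from GENCODE vM21.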

Additional observations from a re-analysis of the deposited data

Results flagged for a closer look

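Some barcodes that the authors did not count as cells carried Ebf1, Cd79b and Ly6d along with the Cd79a or Vpreb3 UMIs that chose them. With 500 or more UMIs and 3 or more UMIs of Cd79a plus Vpreb3 there were 28 in the uninduced library, 14 at 3 days and 20 at 6 days, against 3 in Control, of 159, 88, 127 and 102 such barcodes outside the cells. Those 28, 14, 20 and 3 barcodes had medians of 1411, 1311, 1264 and 1301 UMIs. In the uninduced ones Ebf1 had 164 UMIs in 27 of 28 barcodes, Cd79b 134 and Ly6d 204. Cd79a had 158 and Vpreb3 143, which follows from the rule because these genes chose the barcodes. Vpreb1 and Igll1 were found in 1 of those 28 barcodes, with 13 UMIs each, and in 0 of 14 at 3 days and 0 of 20 at 6 days. Cd74 was found in 19 of 28, 12 of 14 and 14 of 20, and Flt3 and Cd34 had 0 UMIs in all 65 barcodes. The share of barcodes meeting the rule that lay outside the cells was 70% (53.5% to 83.4%) in uninduced. It was 77.8% (52.4% to 93.6%) at 3 days, 57.1% (39.4% to 73.7%) at 6 days and 37.5% (8.52% to 75.5%) in Control. These intervals overlapped, and why barcodes lay outside the cells was not tested.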

How the results depend on the processing

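The counts of members called higher were 3 (uninduced against Control), 1 (3 days against uninduced), 2 (6 days against uninduced) and 4 (6 days against Control), and 0 were lower in each. Without cells of 3 or more, 2 or more, or 1 or more Cd79a plus Vpreb3 UMIs the higher counts were 0, 1, 1 and 1 in each case. The loss of Cd79a and Vpreb3 there follows from the rule. A minimum of 10 CPM gave 0, 0, 1 and 1, and a 2-fold threshold gave 1, 0 and 1 in the first 3 comparisons. Thinning to 4700 UMIs gave 1 and 0 in the first 2 comparisons, and 2 members lower at 3 days, Blnk and Igll1. That setting, which also leaves out the cells below 4700 UMIs, gave a Vpreb1 log2 ratio of -0.0245 at 3 days. Thinned and without the cells of 3 or more Cd79a plus Vpreb3 UMIs, Vpreb1 was at 3.92 against 2.86 CPM. That too was short of the 1.5-fold call. The mean of cells gave 4 higher at 3 days. Counting all barcodes of 500 or more UMIs, added after seeing the data, gave 0 higher at 3 days and 1 at 6 days against uninduced. TMM and DESeq2 scaling, a pseudocount of 0.1 CPM and no minimum left each count within 1.5 times, and both scalings left the 32 log2 ratios within counting error. Ebf1 at 6 days was called against both libraries in each of these settings. With all barcodes of 500 or more UMIs it only just passed the 1.5-fold threshold against uninduced, at 27.2 against 17.6 CPM. No paired analysis was possible because with 1 library per group nothing can be paired. Members under 2 CPM rested on 5 to 32 UMIs per library, which limits what differences could be seen.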
